A study of Mus musculus with 2 samples.

Results

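Hair cells are the mechanosensory receptors of the inner ear. They turn movement of an actin-filled hair bundle into a receptor current through channels built on Tmc1, and they signal to the afferent nerve through ribbon synapses that need otoferlin (Otof). In the cochlea, inner hair cells load glutamate with Slc17a8 (the vesicular glutamate transporter VGLUT3) and pass the sound signal on, whereas outer hair cells amplify it with the motor protein prestin (Slc26a5) and are the cells most readily lost after loud noise. The cells described here were chosen by measured values: a droplet barcode was taken as a hair cell when at least 3 of 8 hair cell genes (Otof, Pou4f3, Myo7a, Tmc1, Lhfpl5, Slc17a8, Slc26a5 and Strc) had at least 1 UMI, a UMI (unique molecular identifier) being 1 counted RNA molecule. This rule gave 234 hair cells among 37556 barcodes that held at least 500 UMIs and 300 genes and at most 20% mitochondrial UMIs, of 40318 barcodes deposited.

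The series holds 2 libraries of sensory epithelium from the cochlea of wild-type C57BL/6J mice aged 4 to 6 weeks. In the Drug-NIHL library, which gave 150 hair cells among 20133 filtered barcodes, ears had received a drug at 90 mg/ml, abbreviated VPA in the series title, before noise. In the NIHL library, which gave 84 hair cells among 17423 filtered barcodes, the opposite, untreated ears of the same mice had received noise alone. Both groups were exposed for 2 h to an octave band of 8 to 16 kHz at 105 dB and were dissected 2 days later, so no ear was free of noise. The labels give n = 5 per group and 1 captured library each. With 1 library per group the animals cannot be told apart and nothing was tested between groups: intervals are exact 95% intervals that cover counting error only. The libraries shared 111 barcode sequences, but no hair cell barcode was a hair cell barcode of the other library.

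Hair cells were deeper than most barcodes. The 150 Drug-NIHL hair cells held 403737 UMIs in all, with a median of 2097 UMIs and a range of 608 to 11648. The 84 NIHL hair cells held 320547 UMIs, with a median of 2683 UMIs and a range of 841 to 24242. The median over all other barcodes was 1207 UMIs in Drug-NIHL and 1160 UMIs in NIHL. The median share of mitochondrial UMIs was 5.28% in Drug-NIHL hair cells and 4.09% in NIHL hair cells, and the other barcodes showed the same order, at 6.53% in Drug-NIHL and 4.80% in NIHL.

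Genes that the rule did not use also carried the label. Of 27 further hair cell genes, the median hair cell held 11 in Drug-NIHL and 13 in NIHL, and at least 3 of them were found in 149 of 150 Drug-NIHL hair cells and in 84 of 84 NIHL hair cells, against 3.65% of the other barcodes in Drug-NIHL and 3.72% in NIHL. This mark was not particular to hair cells. Among barcodes outside the rule with at least 3 neuron markers, 84.9% passed it in Drug-NIHL and 90.8% in NIHL. Those barcodes had median depths of 9594 and 12450 UMIs and held a median of only 4 and 5 of the 27 genes. Espn, which encodes the actin-bundling protein of the stereocilia, had a UMI in 93.3% of Drug-NIHL hair cells and 100% of NIHL hair cells. Xirp2, a stereocilia actin-binding protein, was found in 83.3% of Drug-NIHL and 94.0% of NIHL hair cells, and Acbd7 in 90.0% of Drug-NIHL and 89.3% of NIHL hair cells. In barcodes with at least 3 Schwann cell markers, a type that should lack these genes, Xirp2 was found in 0.141% in Drug-NIHL and 0.0736% in NIHL, at median depths of 1218 and 1016 UMIs.

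Among the 20 genes most concentrated in hair cells, ranked by the smaller of the 2 libraries' ratios of CPM (UMI counts scaled to a common library total) over all other barcodes, were Chrna9, Kncn, Xirp2, Loxhd1, Cib3, Gfi1, Cabp2, Ccer2, Ccdc81, Acbd7, Espnl, Myo15, Chrna10, Pjvk, Lhx3, Kcna10, Ptprq, Cacna2d4 and Myo15b. They include both subunits of the efferent acetylcholine receptor (Chrna9 and Chrna10), the transcription factors Gfi1 and Lhx3, the calcium sensor Cabp2 of the ribbon synapse and the bundle proteins Loxhd1, Espnl, Myo15 and Ptprq. Chrna9 reached 146 CPM in Drug-NIHL hair cells and 187 CPM in NIHL hair cells, at least 340 times its level in other barcodes of the same library. Since the rule chose these cells, the ranking is a description. Genes of motile cilia were also found, picked here after their values were seen: Dnah5, an axonemal dynein heavy chain, had a UMI in 33.3% of Drug-NIHL and 40.5% of NIHL hair cells, Armc4 in 26.7% of Drug-NIHL and 29.8% of NIHL hair cells, and Cfap52 in 22.7% of Drug-NIHL and 27.4% of NIHL hair cells.

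Barcodes just outside the rule were deeper than those just inside and held fewer hair cell genes. In Drug-NIHL, 66 hair cells had exactly 3 rule genes and 65 barcodes just outside had 2, and the median number of the 27 further hair cell genes was 10 inside and 7 outside, at median depths of 1870 UMIs inside and 2578 outside. In NIHL, 30 hair cells had exactly 3 and 31 barcodes had 2, with medians of 12 genes and 2301 UMIs inside and 9 genes and 3573 UMIs outside.

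**Figure D1:**
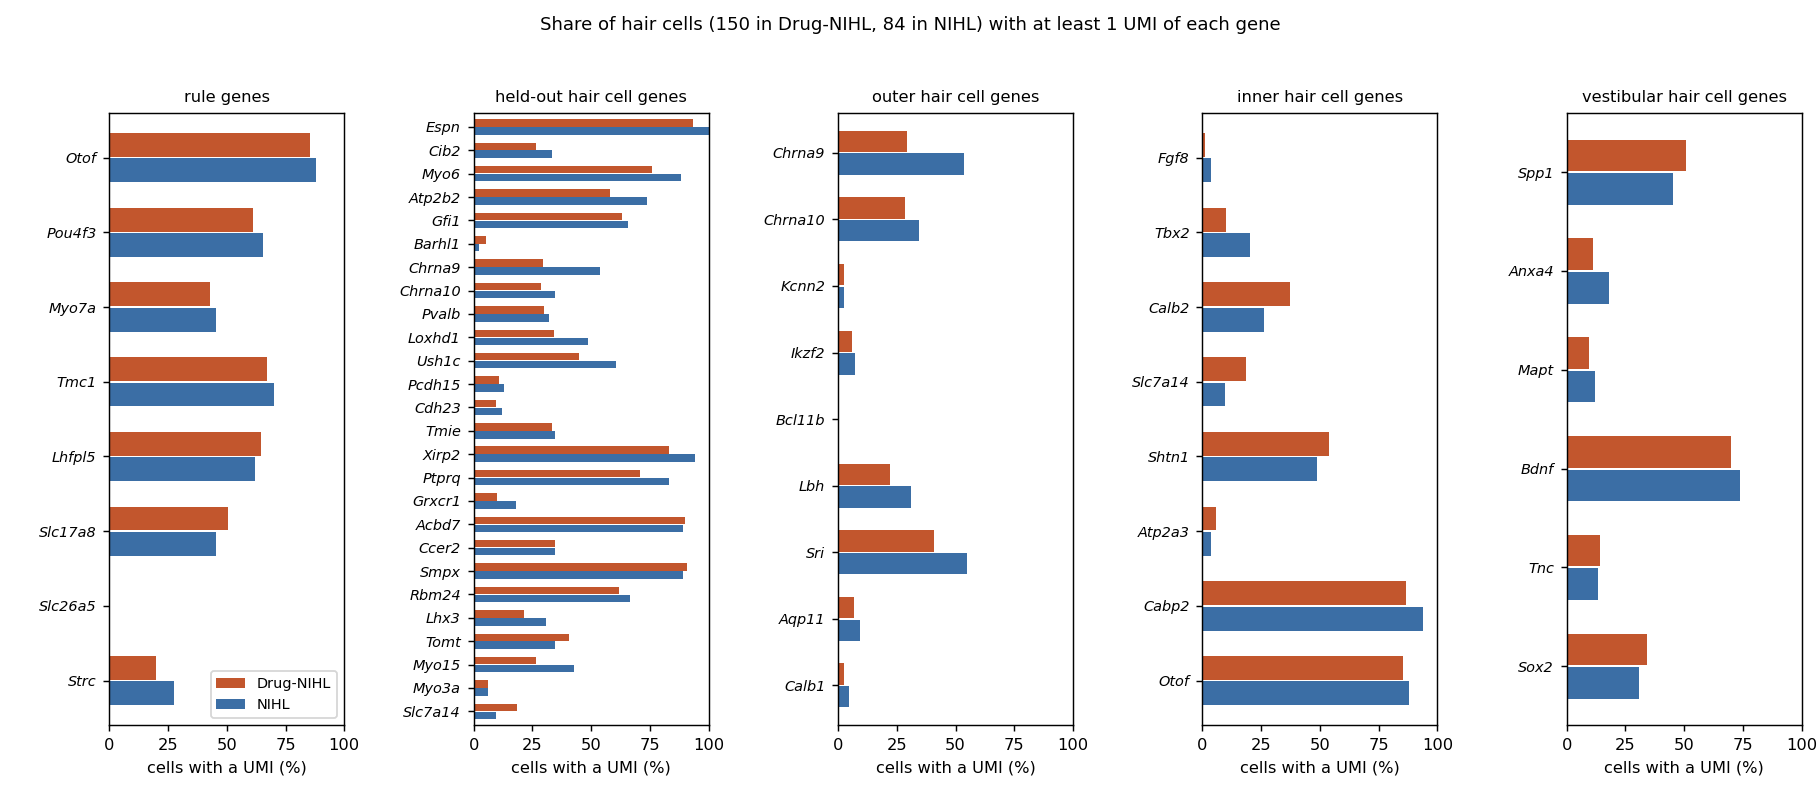
Bars give the percentage of hair cells with at least 1 UMI of each gene in Drug-NIHL (upper bar) and NIHL (lower bar), in 5 panels for the rule genes and 4 further marker lists. Slc26a5 and Bcl11b have no bar in either library, while Espn, Acbd7, Otof and Cabp2 stand above 80% in both.

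Prestin was not found. Slc26a5, at chr5:21810655-21865604 on the minus strand of GRCm38, had 0 UMIs in 150 Drug-NIHL hair cells, which allows a share of up to 2% of cells with a UMI, and 0 UMIs in 84 NIHL hair cells, which allows up to 3.57%. All other barcodes together held 0 Slc26a5 UMIs in Drug-NIHL and 1 in NIHL. Bcl11b, a transcription factor of outer hair cells, also had 0 UMIs in the hair cells of both libraries. Ikzf2, a regulator of the outer hair cell program, had 10 in Drug-NIHL and 9 in NIHL. Fgf8, a growth factor made by inner hair cells, was as scarce, with 2 UMIs in Drug-NIHL and 3 in NIHL. Prestin therefore marked no barcode as an outer hair cell, and Ikzf2 and Fgf8 were too scarce to sort the barcodes. Whether outer hair cells were among these barcodes at all was not tested.

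A list of 6 genes linked with vestibular hair cells was read beside these. At least 3 of them had a UMI in 39 of 150 Drug-NIHL hair cells (26%) and in 20 of 84 NIHL hair cells (23.8%), against 1.33% of other barcodes in Drug-NIHL and 1.46% in NIHL. Bdnf, a neurotrophin, had a UMI in 70.0% of Drug-NIHL and 73.8% of NIHL hair cells, against 0.465% of Schwann-marked barcodes in Drug-NIHL and 0.423% in NIHL. Sox2, a transcription factor that most supporting cells also express, was found in 34.0% of Drug-NIHL and 31% of NIHL hair cells, and in 11.7% and 11.6% of Schwann-marked barcodes in Drug-NIHL and NIHL. Anxa4 was found in 11.3% of Drug-NIHL and 17.9% of NIHL hair cells, and Tnc in 14% of Drug-NIHL and 13.1% of NIHL hair cells. The level of Spp1, which encodes the secreted protein osteopontin, was similar in hair cells and other barcodes. It was 3356 CPM in Drug-NIHL hair cells against 2914 CPM in other Drug-NIHL barcodes. In NIHL it was 1987 CPM in hair cells against 2016 CPM in other barcodes. Within the hair cells, the calcium buffer gene Calb2 was found in 19.7% of Spp1 cells in Drug-NIHL and 15.8% in NIHL. Its share of all hair cells was 37.3% in Drug-NIHL and 26.2% in NIHL. Sox2 was found in 58.9% of Calb2 cells in Drug-NIHL and 59.1% in NIHL, above its shares of all hair cells. These pairs were picked here after their values were seen. The labels give the cochlea as the tissue, and whether vestibular tissue was part of the dissection was not tested. No further cell type name is given to the 234 barcodes.

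Inner and outer hair cells were to be told apart by Slc17a8 against the sum of Slc26a5, Ocm and Strc. Slc17a8 lies at chr10:89574020-89621253, Ocm, which encodes the calcium buffer oncomodulin, at chr5:144019804-144026670, and Strc, which encodes the stereocilia link protein stereocilin, at chr2:121363728-121387168, all on the minus strand of GRCm38. With no Slc26a5 counts the split rested on Ocm and Strc alone, so the groups are called Ocm/Strc cells and Slc17a8 cells. In Drug-NIHL, 26 hair cells were Ocm/Strc cells, 67 were Slc17a8 cells and 57 had equal counts and were left untyped. In NIHL, 21 were Ocm/Strc cells, 31 were Slc17a8 cells and 32 were untyped. Ocm/Strc cells made up 28.0% of the typed cells in Drug-NIHL (interval 19.1% to 38.2%) and 40.4% in NIHL (27.0% to 54.9%), and these intervals overlap. Slc17a8 together with Ocm or Strc was found in 13 Drug-NIHL and 10 NIHL hair cells, so the genes did not exclude each other.

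Few genes outside the split separated the 2 groups, the first of which pooled cells with Ocm and cells with Strc. Of 1676 genes compared, 2 (0.119%) were at least 2 times higher in Ocm/Strc cells than in Slc17a8 cells in both libraries, and 4 (0.239%) were at least 2 times lower in both. Cpeb3, which encodes an RNA-binding protein, was one of the higher genes. In Drug-NIHL it stood at 144 CPM in Ocm/Strc cells and 59.8 CPM in Slc17a8 cells, and in NIHL at 179 CPM in Ocm/Strc cells and 70.9 CPM in Slc17a8 cells. Zcchc18, Mier1, Snhg8 and Soat1 were the 4 lower genes. Of the calcium buffers, Pvalb and Calb1 had the same order in both libraries and Calb2 did not. Pvalb, parvalbumin, stood at 248 CPM in Ocm/Strc cells and 141 CPM in Slc17a8 cells of Drug-NIHL, and at 581 CPM in Ocm/Strc cells and 142 CPM in Slc17a8 cells of NIHL. Calb1, calbindin, had 3 UMIs in Ocm/Strc cells and 0 in Slc17a8 cells of Drug-NIHL, and 7 in Ocm/Strc cells and 0 in Slc17a8 cells of NIHL. Calb2, calretinin, stood at 679 CPM in Ocm/Strc cells and 891 CPM in Slc17a8 cells of Drug-NIHL, but at 492 CPM in Ocm/Strc cells and 283 CPM in Slc17a8 cells of NIHL. Ocm was found in 9 hair cells of each library, and together with Strc in 4 of each. Of these 9, 0 held Cib3 in either library, against 64.7% of all hair cells in Drug-NIHL and 79.8% in NIHL. Pvalb was found in 77.8% of Ocm cells in Drug-NIHL and 88.9% in NIHL, against 30.0% and 32.1% of all hair cells. Cib3 and Pvalb were picked here after their values were seen, and the Ocm cells were few. Genes listed for inner hair cells were found in both Ocm/Strc cells and Slc17a8 cells. Shtn1, an actin regulator, had the higher share in Slc17a8 cells of both libraries, whereas Otof had a UMI in 84.6% of Ocm/Strc cells and 88.1% of Slc17a8 cells in Drug-NIHL, and in 85.7% of Ocm/Strc cells and 93.5% of Slc17a8 cells in NIHL.

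**Figure D2:**
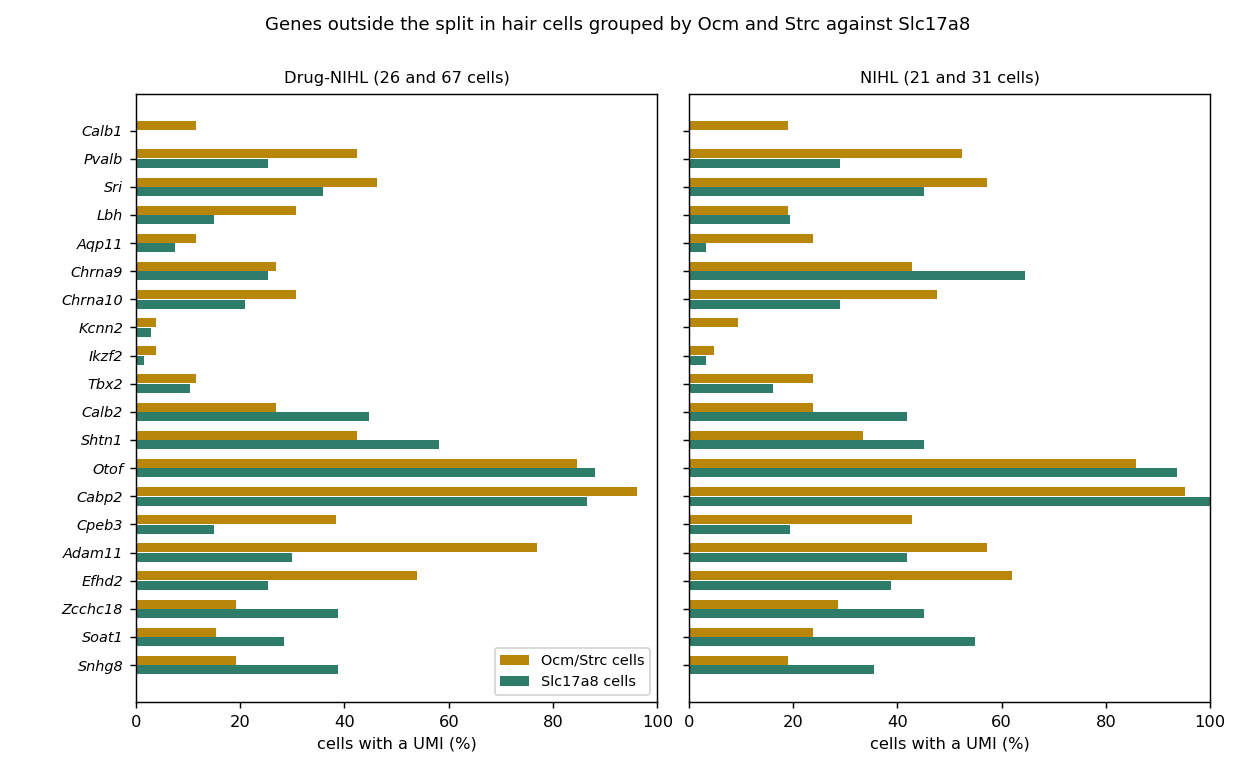
Bars give the percentage of cells with at least 1 UMI for 20 genes that the split did not use, in Ocm/Strc cells (upper bar) and Slc17a8 cells (lower bar), with Drug-NIHL in the left panel and NIHL in the right. Calb1 was seen only in Ocm/Strc cells in both libraries, and Otof and Cabp2 stand above 80% in both groups.

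Hair cells were a larger share of the Drug-NIHL library. They made up 0.745% of filtered barcodes in Drug-NIHL (0.631% to 0.874%) and 0.482% in NIHL (0.385% to 0.597%), a ratio of 1.55 (1.18 to 2.04). Schwann-marked barcodes were 9896 of the barcodes outside the rule in Drug-NIHL and 10873 in NIHL, 49.5% and 62.7%. Leaving them out of the denominator, hair cells were 1.47% in Drug-NIHL and 1.28% in NIHL, and the ratio was 1.14 (0.869 to 1.51). Whether the share followed from recovery in the dissection, from the other cell types or from the number of hair cells was not tested.

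Part of the hair cell barcodes carried markers of other cells. At least 3 of the markers of another type were found in 71 Drug-NIHL and 38 NIHL hair cells. Of 6 Schwann markers at least 3 were found in 46 Drug-NIHL and 27 NIHL hair cells, and of 10 supporting cell markers at least 3 in 28 Drug-NIHL and 17 NIHL hair cells, with all 10 having a UMI in Drug-NIHL hair cells and 9 in NIHL hair cells. The 6 fibrocyte markers summed to 988 CPM in Drug-NIHL hair cells and 109 CPM in NIHL hair cells, and the 5 erythroid markers to 16684 CPM in Drug-NIHL and 3522 CPM in NIHL. Coch, which encodes an abundant fibrocyte protein of the cochlea, had 232 UMIs in Drug-NIHL hair cells and 8 in NIHL hair cells. Marked barcodes were deeper: 18 of 22 Drug-NIHL and 17 of 20 NIHL hair cells with at least 4000 UMIs were marked. Several results below depended on these barcodes, and values without marked cells or for hair cells under 4000 UMIs are given for those.

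To compare the groups, UMIs were summed over the hair cells of each library and expressed as CPM, and a gene was called higher or lower when its Drug-NIHL to NIHL ratio was past 1.5-fold. Of 6196 genes with at least 20 UMIs in both sums together, 678 (10.9%) were called higher and 779 (12.6%) lower, and the median log2 ratio was -0.04. The shares were smaller at higher counts: of 2809 genes with at least 50 UMIs, 5.34% were called higher and 8.01% lower, and of 1295 genes with at least 100 UMIs, 3.47% were called higher and 6.1% lower. In all other barcodes, 2.02% of the same genes were called higher and 0.55% lower. Those sums held 37267349 UMIs in Drug-NIHL and 36087755 in NIHL, far more than in hair cells. Their ratios therefore carried less counting error, and the shares cannot be set against those of hair cells directly.

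The mechanotransduction genes were 12 of 13 testable, and 3 of them (Lhfpl5, Cib2 and Tomt) were called higher and none lower, against 10.9% and 12.6% of all genes. Tomt, a transmembrane protein that carries Tmc1 toward the bundle, had 196 CPM in Drug-NIHL and 115 CPM in NIHL, a ratio of 1.70 (1.13 to 2.58). Lhfpl5, a subunit of the channel complex and one of the rule genes, had 409 CPM in Drug-NIHL and 259 CPM in NIHL, a ratio of 1.58 (1.21 to 2.08). The channel subunit Tmc1 itself, also a rule gene, had 421 CPM in Drug-NIHL and 349 CPM in NIHL, a ratio of 1.21 (0.944 to 1.54). Cells were chosen by counts of the rule genes, so the ratios of rule genes cannot be told apart from that choice. The list's median log2 ratio was 0.25 over all hair cells, 0.03 without marked cells and -0.15 for hair cells under 4000 UMIs, so its sign depended on which barcodes were kept. None of the list was called higher in either of these 2 settings, and Lhfpl5 had a log2 ratio of 0.12 under 4000 UMIs.

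Of 25 testable bundle genes 2 were called higher and 2 lower, against 10.9% and 12.6% of all genes, with a median log2 ratio of -0.08. Under 4000 UMIs 1 of 24 was called higher and 6 lower, with a median of -0.48. Espn had 1451 CPM in Drug-NIHL and 1756 CPM in NIHL, a ratio of 0.826 (0.735 to 0.929), and Xirp2 had 830 CPM in Drug-NIHL and 839 CPM in NIHL. Of 13 testable ribbon synapse genes 3 (Slc17a8, Cacna1d and Rims2) were called higher and none lower, against the same 10.9% and 12.6% of all genes, with a median of 0.01. Under 4000 UMIs 0 of 10 were called and the median was -0.14, and without marked cells 1 of 8 was called higher. Cacna1d, the pore of the presynaptic calcium channel, had 35 UMIs in Drug-NIHL and 12 in NIHL, a ratio of 2.32 (1.17 to 4.90). Otof, a rule gene, had 1011 CPM in Drug-NIHL and 902 CPM in NIHL, a ratio of 1.12 (0.962 to 1.31). Slc17a8, another rule gene, had 404 CPM in Drug-NIHL and 262 CPM in NIHL, a ratio of 1.54 (1.18 to 2.03). However, its log2 ratio was -0.018 once each cell was thinned to 1000 UMIs.

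Pou4f3 and Gfi1 are among the transcription factors that specify and maintain hair cells, and Pou4f3 is also a rule gene. Pou4f3 had 334 CPM in Drug-NIHL and 303 CPM in NIHL, a ratio of 1.10 (0.845 to 1.45). Gfi1 had 372 CPM in Drug-NIHL and 303 CPM in NIHL, a ratio of 1.23 (0.945 to 1.60). Of 11 testable factors 2 were called higher (Rfx3 and Nr2f2) and 1 lower (Tbx2), against 10.9% and 12.6% of all genes, with log2 ratios from -0.93 to 1.03. Under 4000 UMIs 0 of 10 were called higher and 3 lower. Among 7 testable channel and efferent receptor genes none was called higher and 1 lower. Chrna9 had a UMI in 29.3% of Drug-NIHL and 53.6% of NIHL hair cells, and in 15.8% of Drug-NIHL and 24.1% of NIHL hair cells once thinned to 1000 UMIs. Its CPM ratio was 0.781 (0.536 to 1.14), an interval that holds 1.

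Summed over hair cells, the calcium buffers Ocm and Pvalb were lower in Drug-NIHL. Few cells held most of the Ocm UMIs, and 1 NIHL cell held most of that library's Pvalb UMIs. Ocm had 52 UMIs in Drug-NIHL and 119 in NIHL, a ratio of 0.347 (0.245 to 0.484), and was found in 9 cells of each library. The 5 richest cells held 18, 10, 7, 4 and 4 Ocm UMIs in Drug-NIHL and 27, 22, 17, 13 and 13 in NIHL. Pvalb had 95 UMIs in Drug-NIHL and 158 in NIHL, with 55.1% of the NIHL UMIs in 1 cell, and it was also found in 10.3% of Schwann-marked barcodes in Drug-NIHL and 6.94% in NIHL. Of 14 testable calcium genes 1 was called higher and 2 lower, against 10.9% and 12.6% of all genes.

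**Figure D3:**
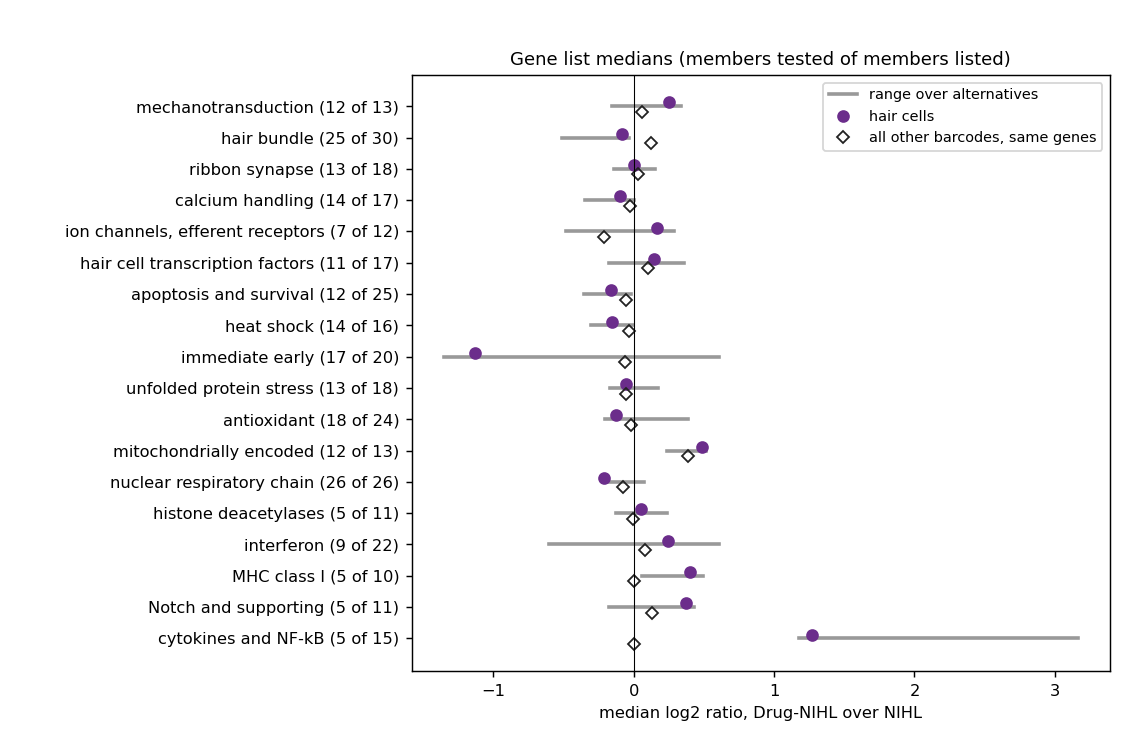
Each row is a gene list, with its testable and listed members. Circles give the median log2 ratio of Drug-NIHL over NIHL in hair cells, diamonds the median of the same genes in all other barcodes, and grey lines the range over the alternative settings. The immediate early genes span 0, from -1.35 to 0.61, whereas the mitochondrially encoded genes stay above it in hair cells and in other barcodes.

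Immediate early genes, the AP-1, Egr and related factors that answer stimulation within minutes, had the lowest list median. Of 17 testable members 13 were called lower and 1 higher, against 12.6% and 10.9% of all genes. Their median log2 ratio was -1.13, against -0.06 in all other barcodes. Summed, the 20 genes stood at 6157 CPM in Drug-NIHL hair cells and 13259 CPM in NIHL hair cells, a ratio of 0.464 (0.442 to 0.488). Of 3 members picked after their values were seen, Fos had 612 UMIs in Drug-NIHL and 1123 in NIHL, Jun had 346 in Drug-NIHL and 561 in NIHL, and Egr1 had 301 in Drug-NIHL and 540 in NIHL.

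The median hair cell showed the opposite order in CPM, but the medians were equal once cells were thinned. The summed level per cell had a median of 2984 CPM in Drug-NIHL and 2401 CPM in NIHL. With each cell thinned to the same depth, the median was 3 UMIs in both libraries. The thinned mean was 5.49 UMIs in Drug-NIHL and 7.39 in NIHL. Median CPM was lower in Drug-NIHL among untyped cells (2083 against 4437) and marked cells (3577 against 4232). Without marked cells it was higher (2591 against 2245). The 5 cells with the most UMIs of these genes held 22.6% of their UMIs in Drug-NIHL and 60.3% in NIHL. In NIHL those 5 barcodes held 19832, 13579, 9950, 7302 and 6481 UMIs and all 5 carried at least 3 markers of another type, whereas 2 of the 5 did in Drug-NIHL. In hair cells with at least 4000 UMIs the ratio was 0.396 (0.370 to 0.423), over 22 Drug-NIHL and 20 NIHL cells. In hair cells under 4000 UMIs it was 1.34 (1.21 to 1.48), over 128 Drug-NIHL and 64 NIHL cells. Without marked cells it was 1.33 (1.19 to 1.49), with the genes at 5948 CPM in 79 Drug-NIHL cells and 4474 CPM in 46 NIHL cells. In both libraries the hair cells stood below other barcodes, whose per-cell median was 13614 CPM in Drug-NIHL and 15898 CPM in NIHL. Low levels were not particular to hair cells. Barcodes with at least 3 neuron markers stood at 1942 CPM in Drug-NIHL and 2055 CPM in NIHL. Those with 3 oligodendrocyte markers stood at 2095 CPM in Drug-NIHL and 1524 CPM in NIHL. Strial marginal cells were at 1684 and 1695 CPM and strial intermediate cells at 1313 and 990 CPM, in Drug-NIHL and NIHL. The part of RNA from other cells in these values was not tested beyond leaving out marked cells.

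**Figure D4:**
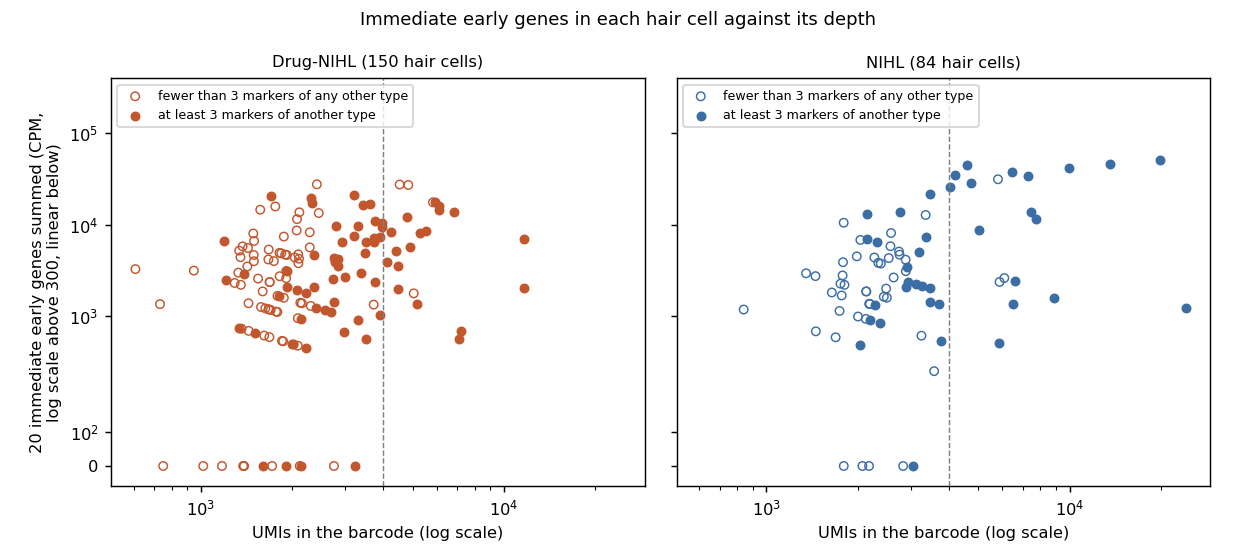
Each point is a hair cell, with its UMIs on the x axis (log scale) and its summed immediate early genes in CPM on the y axis, Drug-NIHL left and NIHL right. Filled points carry at least 3 markers of another cell type, and the dashed line marks 4000 UMIs. The highest NIHL points are filled ones to the right of the line.

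Mitochondrially encoded genes were higher in Drug-NIHL, in hair cells as in the rest. All 12 testable members had a ratio above 1 and 2 passed 1.5-fold, mt-Nd4l at 1.54 (1.37 to 1.72) and mt-Nd5 at 1.53 (1.32 to 1.78), with a median log2 ratio of 0.49 in hair cells and 0.38 in other barcodes. No member passed 1.5-fold without marked cells or under 4000 UMIs, where the median was 0.27 and 0.24. The 26 nuclear genes of the respiratory chain had a median of -0.21, with 1 called higher (Uqcrc1) and 2 lower (Atp5g1 and Cycs), and the top NIHL cell of each held 37.0% of the Atp5g1 and 26.4% of the Cycs UMIs of that library. All 3 listed metallothionein genes, which bind zinc and copper, were called higher: Mt1 at 1.52 (1.29 to 1.81), Mt2 at 1.84 (1.10 to 3.19) and Mt3 at 1.76 (1.38 to 2.27), the last with 54.2% of its NIHL UMIs in 1 cell. The peroxiredoxins Prdx3, Prdx5 and Prdx6 were called lower, at 0.430, 0.622 and 0.614. In all, 4 of 18 testable antioxidant genes were called higher and 3 lower, against 10.9% and 12.6% of all genes, with a median log2 ratio of -0.12. Under 4000 UMIs 4 of 16 were called higher and 0 lower and the median was 0.38, and as the mean of cells 3 of 18 were called higher and 1 lower with a median of 0.094.

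The other stress, death and immune lists are read against the 10.9% of all genes called higher and 12.6% called lower. Of 14 testable heat shock genes none was called higher and 2 lower, Dnajb1 at 0.454 (0.284 to 0.713) and Cryab at 0.609 (0.486 to 0.762), while the abundant chaperones Hsp90ab1, Hsp90aa1 and Hspa8 had ratios of 1.01, 1.05 and 1.001. Of 12 testable apoptosis and survival genes 2 (Bad and Mdm2) were called higher and none lower. Of 13 testable unfolded protein genes 1 was called higher and 2 lower. Of 5 testable histone deacetylase genes 1 was called higher, Hdac9 with 16 UMIs in Drug-NIHL and 5 in NIHL, and its counting interval held 1. Of 9 testable interferon genes 3 were called higher and 2 lower, of 5 MHC class I genes 1 higher, and of 5 Notch and supporting cell genes 1 higher. Of 5 testable cytokine genes 4 were called higher, but Ccl7, Ccl2 and Cxcl2 had a UMI in 2%, 2.67% and 8% of Drug-NIHL hair cells, with macrophage markers at 295 CPM in Drug-NIHL and 74.9 CPM in NIHL hair cells.

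Among 1029 genes enriched at least 2-fold in hair cells in both libraries, 70 were called higher and 97 lower, against 575 higher and 646 lower of 4818 other genes. The 10 named as higher were Dnajc5b, Elfn1, Shtn1, Cacfd1, Cst6, Ccdc81, Lhfpl5, Mmp16, Cib2 and Slc17a8. Lhfpl5 and Slc17a8 are rule genes, so their ratios cannot be told apart from the choice of cells. The testable rule genes had a median log2 ratio of 0.24, and the testable further hair cell genes -0.07. Dnajc5b, a relative of the synaptic vesicle chaperone cysteine string protein, had 327 CPM in Drug-NIHL and 172 CPM in NIHL, a ratio of 1.91 (1.38 to 2.66). Its log2 ratio was 0.92 over all hair cells and 0.38 under 4000 UMIs, and its level in other barcodes was 1.66 CPM in Drug-NIHL and 1.47 CPM in NIHL. Shtn1 had 359 CPM in Drug-NIHL and 212 CPM in NIHL, a ratio of 1.69 (1.26 to 2.29). Elfn1 had 37 UMIs in Drug-NIHL and 11 in NIHL, a ratio of 2.67 (1.33 to 5.8), and Mmp16, a membrane-bound matrix metalloproteinase, 25 in Drug-NIHL and 7 in NIHL, a ratio of 2.84 (1.19 to 7.76). Over 19 alternatives, 7 of the 10 were higher in each, and Elfn1 and Mmp16 stayed past 1.5-fold in each.

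The 10 named as lower were Cnot8, Morn1, Ctxn1, Bag2, Lekr1, Sox21, St8sia2, Bex4, Cep41 and Nin. Cnot8, a subunit of the deadenylase complex that shortens mRNA tails, had 66.9 CPM in Drug-NIHL hair cells and 140 CPM in NIHL hair cells, a ratio of 0.476 (0.284 to 0.785), and a UMI in 15.3% of Drug-NIHL and 41.7% of NIHL hair cells. Bag2, a cochaperone of Hsp70, had 32 UMIs in Drug-NIHL and 49 in NIHL, a ratio of 0.518 (0.321 to 0.826). Nin, which encodes the centrosome protein ninein, had 59 UMIs in Drug-NIHL and 76 in NIHL, a ratio of 0.616 (0.431 to 0.878). St8sia2, a polysialyltransferase, had 66 UMIs in Drug-NIHL and 87 in NIHL, a ratio of 0.602 (0.431 to 0.839). Over 19 alternatives, 8 of the 10 were lower in each and 5 (Cnot8, Morn1, Ctxn1, Bag2 and Lekr1) stayed past 1.5-fold in each. Sox21 and Cep41 had a log2 ratio of 0.81 each without marked cells.

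**Figure D5:**
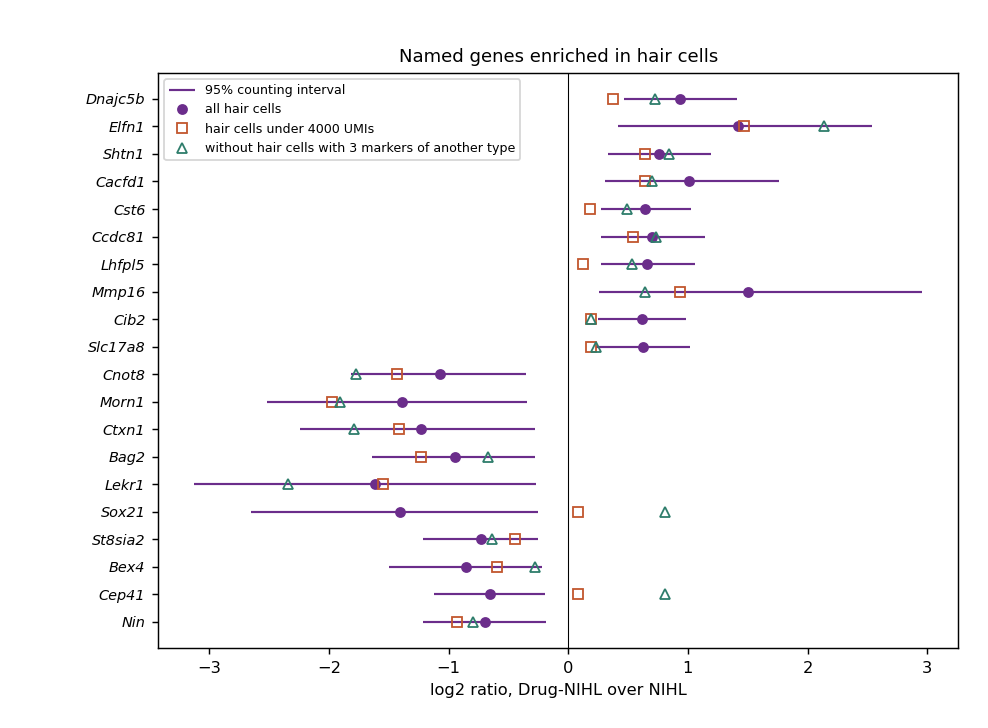
Filled circles give the log2 ratio of Drug-NIHL over NIHL for the 20 named genes enriched in hair cells, with the 95% counting interval as a line. Open squares are hair cells under 4000 UMIs and open triangles hair cells without 3 markers of another type. The squares and triangles of Sox21 and Cep41 lie above 0 while their circles lie below it.

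Among the genes not enriched in hair cells, those named as higher were Slco1c1, Cavin2, Fam117b, Apoe, Mpp6, Otos, Ints1, Nudt3, Timp3 and Capn15. Apoe, the apolipoprotein made by many glia and macrophages, had 1011 CPM in Drug-NIHL and 393 CPM in NIHL hair cells, and more in other barcodes, at 4317 CPM in Drug-NIHL and 4051 CPM in NIHL. The log2 ratio of Apoe was 1.36 over all hair cells and 3.39 under 4000 UMIs. Otos, an otospiralin secreted by fibrocytes, had 32 UMIs in Drug-NIHL and 6 in NIHL, and its ratio in other barcodes was 2.66. Those named as lower were Id1, Erbb3, Arhgap21, Cadm4, Hdhd2, Pdgfa, Dsp, Gas1, Aldh1a3 and Epb41l4aos. Erbb3, the neuregulin receptor of Schwann cells, had 9 UMIs in Drug-NIHL and 28 in NIHL hair cells, and Id1, an inhibitor of helix-loop-helix factors, 37 in Drug-NIHL and 88 in NIHL. Over 19 alternatives, 9 of the 10 higher and 4 of the 10 lower genes kept their sign in each. Erbb3, Id1, Cadm4, Dsp and Gas1 had log2 ratios of 1.17, 0.091, 0.11, 0.32 and 0.091 without marked cells.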

How the data were processed

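Single-cell RNA was measured in 2 libraries (10x Genomics 3' v3.1), 1 per group. The authors deposited raw UMI counts per gene and barcode, made with Cell Ranger 5.0.1 per the file headers. The submitters' processing notes also list Cell Ranger 5.0, STAR, Seurat 3.2.2, mm10 and GRCm38, without roles. No step after counting is recorded in the deposited counts, so barcodes were filtered here at 500 UMIs, 300 genes and 20% mitochondrial UMIs.

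Counts were summed over the hair cells of each library, and CPM, Drug-NIHL over NIHL ratios and exact conditional binomial 95% intervals were computed in Python 3.11.15 with numpy 2.4.6, scipy 1.17.1 and pandas 2.3.3. Log2 ratios used a prior of 0.5 UMI. Genes with at least 20 UMIs in both sums together were compared, and called past 1.5-fold. With 1 library per group no model could estimate the spread between animals, so no p-value was computed. Intervals and limits for a count of 0 (3 counts) cover counting error only. The UMI totals of 403737 in Drug-NIHL and 320547 in NIHL hair cells limit low genes most.

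Shares of cells were also read after thinning each cell to 1000 UMIs. Doublets were scored with Scrublet (scanpy 1.11.5) and the 8% highest scores of each library were marked, a rule set after its automatic threshold was seen to depend on the random seed. Marked doublets stayed in, and were left out as an alternative. TMM factors came from edgeR 4.0.16 in R 4.3.3. Figures were drawn with matplotlib 3.10.9.

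Named genes were up to 10 per direction, among genes past 1.5-fold, whose interval bound nearest 1 lay furthest from it. This was done for genes at least 2 times as high in hair cells as in other barcodes in both libraries, and for all other genes. A UMI in at least 5% of hair cells of the higher library and at most 20% of its UMIs in 1 cell were required. Members of the gene lists could also be named. The alternatives changed the rule, filters, typing, scaling, count minimum and depth. Of these, 3 (at least 2 rule genes, hair cells under 4000 UMIs, each cell thinned) were added after the data were seen. The members and gene lists were chosen with earlier results of these data known. The calculations were tested on simulated data. Some genes of the lists and rankings are not reported here, although sums and counts include them.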

Additional observations from a re-analysis of the deposited data

Results flagged for a closer look

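In 4 results reported here the ratio of summed UMIs, Drug-NIHL over NIHL, ran in opposite directions in Ocm/Strc cells and in Slc17a8 cells. The search over genes covered those named in the text or lists with at most 20% of their UMIs in 1 cell, a limit set after the data were seen, and the difference between the 2 groups of cells was not tested. Kncn, a kinocilium gene, had a ratio of 0.376 in Ocm/Strc cells and 1.78 in Slc17a8 cells. Ccer2 had a ratio of 2.88 in Ocm/Strc cells and 0.552 in Slc17a8 cells. Ndufb9, a subunit of respiratory complex I, had a ratio of 0.573 in Ocm/Strc cells and 1.61 in Slc17a8 cells. The summed immediate early genes had a ratio of 2.16 in Ocm/Strc cells and 0.374 in Slc17a8 cells, and the limit on 1 cell was not applied to this sum. In NIHL 1 cell held 49.1% of these UMIs in Ocm/Strc cells and 1 held 52.0% in Slc17a8 cells. The per-cell medians ran the same way in both, at 4128 CPM in Drug-NIHL and 1371 CPM in NIHL Ocm/Strc cells and at 3165 CPM in Drug-NIHL and 2757 CPM in NIHL Slc17a8 cells.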

How the results depend on the processing

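No paired analysis was possible because each group is 1 pooled library. With the cells typed by Slc17a8 against Slc26a5 alone, the Ocm/Strc share was 0 in Drug-NIHL and 0 in NIHL.

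The genes called higher and lower (678 and 779) were 1343 and 1400 with at least 10 UMIs, 150 and 225 with at least 50, 3707 and 3604 with no minimum, 224 and 304 with each cell thinned to 1000 UMIs, 210 and 361 when thinned before the rule, and 275 and 393 without cells marked for another type. In hair cells under 4000 UMIs 444 were called higher and 620 lower.

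The median log2 ratio of the immediate early genes (-1.13) was -1.35 with at least 4 rule genes, -1.22 without doublets, -0.54 as the mean of cells and -0.39 with each cell thinned, and it reversed to 0.43 without marked cells, 0.48 when thinned before the rule and 0.61 under 4000 UMIs. That of the mitochondrially encoded genes (0.49) was 0.29 with at least 2 rule genes, 0.34 without doublets, 0.27 without marked cells, 0.38 when thinned before the rule, 0.24 under 4000 UMIs and 0.38 as the mean of cells. That of the nuclear respiratory chain genes (-0.21) was -0.012 with at least 4 rule genes, 0.0067 with at least 2, 0.072 without doublets, -0.058 as the mean of cells, -0.013 without the top cell per gene and -0.053 with each cell thinned. When thinned before the rule, medians were -0.10 for mechanotransduction, -0.51 for the hair bundle, -0.36 for apoptosis, 0.17 for unfolded protein stress and -0.53 for the 27 further hair cell genes. Under 4000 UMIs they were -0.15 for mechanotransduction, -0.48 for the hair bundle, -0.35 for calcium handling and -0.48 for the 27 further hair cell genes. Apoptosis stood at -0.35 without marked cells and histone deacetylases at -0.12 as the mean of cells. That of the interferon genes (0.24) was -0.60 with at least 4 rule genes, -0.18 with at least 2, 0.58 without doublets and 0.61 as the mean of cells.

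The genes higher and lower in Ocm/Strc cells than in Slc17a8 cells (2 and 4) were 4 and 11 with at least 4 rule genes, 1 and 14 without Strc in the rule, 0 and 2 when thinned before the rule, 4 and 7 under 4000 UMIs, 7 and 19 with a margin of 2 UMIs, 6 and 7 with typing without Ocm, 5 and 7 as the mean of cells, 24 and 31 with at least 10 UMIs, 0 and 0 with at least 50, and 481 and 340 with no minimum. The lower genes were 17 with at least 2 rule genes and 16 without the top cell per gene.

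Of 43 single genes followed, 15 changed sign under an alternative. The log2 ratio of Cst6 was -0.032 with at least 2 rule genes. With each cell thinned, Cib2 was -0.031, Slc17a8 -0.018, Dsp 1.51 and Gas1 0.088. Under 4000 UMIs, Cep41 and Sox21 were 0.080, Dsp 1.51, Gas1 0.29, Fos 0.13, Jun 0.61 and Egr1 0.45. Thinned before the rule, Cavin2 was -0.95, Dsp 2.22, Epb41l4aos 0.27, Slc17a8 -0.021, Sox21 1.37, Fos 0.52, Jun 0.28 and Egr1 0.47. Without marked cells, Cadm4 was 0.11, Cep41 and Sox21 0.81, Dsp 0.32, Erbb3 1.17, Gas1 and Id1 0.091, Fos 0.20, Jun 0.88 and Egr1 0.46. Their causes were not tested beyond what each setting leaves out. Depth limits the genes with few UMIs.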
